A study of Mus musculus with 6 samples.

Results

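The data described here are 3455 binding sites of hnRNP UL1 in unstimulated RAW 264.7 cells, a mouse macrophage-like cell line. They were chosen by a property of the deposited tables that does not involve binding. The sites are those rows of the unstimulated table that carry a gene name and an Ensembl mouse gene number of 27620 or more, where 27620 is the last gene number reached by the table of cells given lipopolysaccharide (LPS) for 4 h. The 3455 sites name 2191 genes and are 41.0% of the 8425 sites of the unstimulated table, which is 1 of 3 peak tables with 18624 complete rows in all. Of the other unstimulated sites, 2216 name 1322 genes of lower number, and 2745 sites at or beyond 27620 and 9 below it carry no gene name. The 4 h table holds 1 row at gene number 27620, that of Rbm39, and 0 beyond it, and the 10 h table ends at 22416. No comparison between times was therefore made.

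Chromatin immunoprecipitation and sequencing (ChIP-seq) was done with an antibody against hnRNP UL1 in cells left untreated (0 h) or given LPS at 100 ng per ml for 4 h or 10 h, and an input library accompanied each time point. Each of these 6 samples was 1 library, so the values below carry no replicate error. Only the untreated ChIP library is described. Its cells had received no LPS and no genetic change is given in the labels. RAW 264.7 is a proliferating, virus-transformed line, and results from it describe that line alone. Each site was deposited as a point 2 bp wide with the nearest gene, an annotation class and the distance to the nearest annotated transcript start, but with no height, enrichment, p-value or read depth. A site was thus present or absent, and a gene with no row may have been bound below the calling threshold. The 95% intervals given are exact Clopper-Pearson intervals. They cover counting error only, and because sites lie in clusters and are not independent they are too narrow.

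hnRNP UL1 belongs to the heterogeneous nuclear ribonucleoproteins, which package nascent transcripts and act in splicing, mRNA export and transcription. It carries a SAP domain, a motif of DNA-associated proteins, and an RGG-rich region that binds RNA, and it is known for a role in the response to DNA double-strand breaks. As such a protein can be crosslinked to DNA directly, through other proteins or through nascent RNA, a ChIP site marks nearness to chromatin and does not tell these apart.

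Promoter sequences are shown for 4 genes of hnRNP and splicing factors, the class of proteins to which hnRNP UL1 itself belongs. These genes were taken from the 12 gene lists examined. Each had a promoter-class point inside its 300-base RefSeq promoter window (250 bases before to 50 after the start, assembly GRCm38.p6). Such windows cover 1701 of the 2191 named genes, so a list gene may have had none. Genes of other lists also had promoter sites close to an annotated start, such as Atr (-12 bp), Nfkbiz (5 bp), Gadd45a (13 bp) and Rpl30 (-10 bp). Sites this close to a start were thus not limited to hnRNP and splicing factor genes. Capitals mark the 20 bases around the deposited point. The windows are Mbnl1 at chr3:60500929-60501228, Pcbp2 at chr15:102470289-102470588, Srsf4 at chr4:131873387-131873686 and Hnrnpf at chr6:117917044-117917343, all on the plus strand.
Mbnl1: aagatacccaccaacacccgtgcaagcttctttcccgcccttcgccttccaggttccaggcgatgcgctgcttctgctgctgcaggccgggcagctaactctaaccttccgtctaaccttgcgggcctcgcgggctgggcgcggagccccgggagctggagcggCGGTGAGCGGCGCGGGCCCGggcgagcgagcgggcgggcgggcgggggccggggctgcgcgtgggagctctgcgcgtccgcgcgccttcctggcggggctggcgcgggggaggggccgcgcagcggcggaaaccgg
Pcbp2: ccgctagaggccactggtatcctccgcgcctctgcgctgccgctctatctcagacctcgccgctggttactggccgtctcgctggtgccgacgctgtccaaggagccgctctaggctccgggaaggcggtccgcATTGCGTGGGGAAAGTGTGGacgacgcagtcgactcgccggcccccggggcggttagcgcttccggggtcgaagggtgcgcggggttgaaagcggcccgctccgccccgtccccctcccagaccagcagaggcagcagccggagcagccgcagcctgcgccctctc
Srsf4: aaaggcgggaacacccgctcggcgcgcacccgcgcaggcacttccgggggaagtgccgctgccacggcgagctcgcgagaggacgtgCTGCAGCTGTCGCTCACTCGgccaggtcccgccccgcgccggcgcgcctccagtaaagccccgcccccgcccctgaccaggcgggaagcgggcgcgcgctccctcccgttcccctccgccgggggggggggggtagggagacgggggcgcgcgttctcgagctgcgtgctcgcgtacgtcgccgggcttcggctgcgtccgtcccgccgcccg
Hnrnpf: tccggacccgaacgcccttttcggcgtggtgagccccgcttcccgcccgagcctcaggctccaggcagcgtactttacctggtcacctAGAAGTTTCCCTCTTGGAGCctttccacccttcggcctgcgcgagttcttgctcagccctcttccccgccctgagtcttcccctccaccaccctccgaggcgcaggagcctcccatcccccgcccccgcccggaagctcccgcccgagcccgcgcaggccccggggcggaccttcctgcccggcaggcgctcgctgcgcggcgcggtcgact

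The points lay 77, 107, 154 and 153 bases upstream of the RefSeq start in Mbnl1, Pcbp2, Srsf4 and Hnrnpf. Mbnl1 encodes a muscleblind splicing regulator, Pcbp2 a poly(C)-binding protein, Srsf4 a serine/arginine-rich splicing factor and Hnrnpf a G-tract binding hnRNP. The 4 windows were rich in G and C, at 75% in Mbnl1, 71% in Pcbp2, 77.7% in Srsf4 and 71.3% in Hnrnpf. They held 41, 35, 49 and 32 CpG dinucleotides in that order, against a median of 13 in all protein-coding promoter windows. Each held at least 2 copies of the GC box GGGCGG on either strand. None of the capitals overlapped a GC box. Srsf4 alone of the 4 held the ETS core CCGGAAGT, at -211.

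Promoters and introns held most of the sites. Of 3455 sites, 1240 (35.9%, 34.3 to 37.5) were within 1 kb of an annotated transcript start, and 1197 (34.6%, 33.1 to 36.3) were in introns. A further 502 (14.5%, 13.4 to 15.7) were distal intergenic and 364 (10.5%, 9.53 to 11.6) were 1 to 3 kb from a start, 213 of them at 1 to 2 kb and 151 at 2 to 3 kb. Few sites had an exon or UTR class: 61 (1.77%) were in 3′ UTRs, 40 (1.16%) in other exons and 1 in a 5′ UTR. Sites within 3 kb of a start were classed by that distance, so exon sites there are not in these shares. Another 50 (1.45%, 1.08 to 1.90) lay just downstream of a gene. The named genes of lower number in the same library gave 33.5% (31.6 to 35.5) at promoters, 34.3% in introns and 13.8% in distal intergenic sequence, and these intervals overlapped those of the higher numbers. The downstream class was 2.35% (1.76 to 3.07) there, and its interval also overlapped. The difference was not tested, as both sets come from 1 library.

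Intron sites were most often in intron 1, which held 403 of 1197 (33.7%, 31.0 to 36.4), followed by intron 2 with 219 (18.3%). In 157 of 1237 exon and intron sites (12.7%) the exon or intron belonged to a transcript of another gene than the one named as nearest. The gene name of a site therefore means the nearest start and not always the gene in which the site lies. Distances ran from -165916 bp at Kcnj16 to 253008 bp, where a negative sign means upstream. The median distance without sign was 3896 bp over all 3455 sites and 13537 bp over the distal ones, and 142 sites were more than 50 kb from the start of their named gene.

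At promoters the sites straddled the start. The median signed distance of the 1240 promoter sites was 39 bp, and 526 (42.4%, 39.6 to 45.2) were upstream. From -100 to just under 200 bp there were 583 of them (47.0%, 44.2 to 49.8). The fullest bin of 100 bp, from 0 to 99 bp, held 252 sites, the next bin downstream 173 and the bin just upstream 158. For the genes of lower number 37.6% (34.1 to 41.1) of promoter sites were upstream and 51.3% fell in that same interval.

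**Figure D1:**
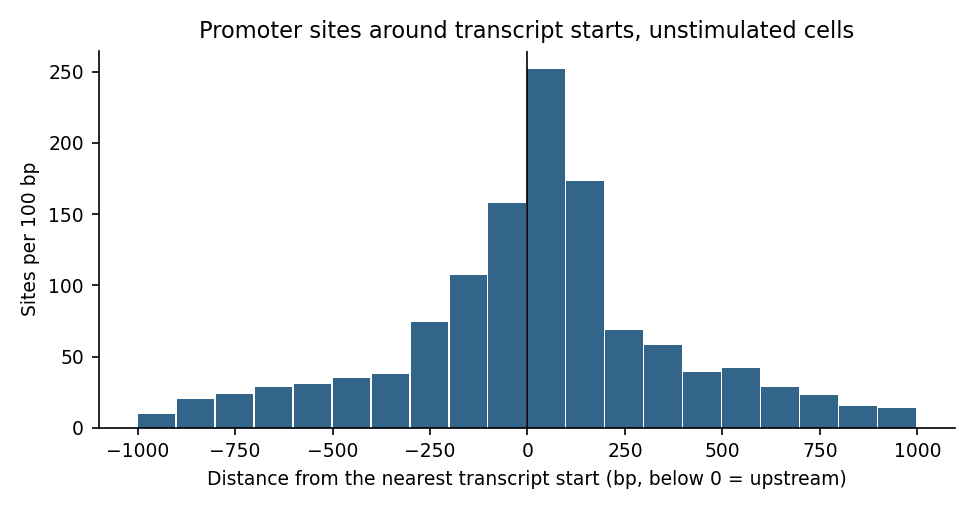
Number of promoter-class sites of unstimulated cells (vertical axis) in bins of 100 bp of signed distance to the nearest annotated transcript start (horizontal axis, bp, negative upstream), 1 library. The bin from 0 to 99 bp is the highest with 252 sites, and the bins on either side of it hold 158 and 173.

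The sequence around these promoters was examined in the RefSeq windows, which cover 1701 of the named genes. In 207 windows of 200 genes a site lay inside the window, 201 sites in all, since windows of 1 gene can overlap. The windows with a site had a median GC content of 67.0% (quartiles 61.0% and 73.3%), compared with 61.3% in windows of all genes named by the sites and 56.7% (48.6% and 64.7%) in 21036 windows of 17267 protein-coding genes. The ratio of observed to expected CpG was above 0.6, the usual mark of a CpG island promoter, in 181 of 207 (87.4%, 82.1 to 91.6) and in 48.1% of all windows. CpG island promoters are known as the starts of broadly expressed genes, and no expression data accompany these sites.

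**Figure D2:**
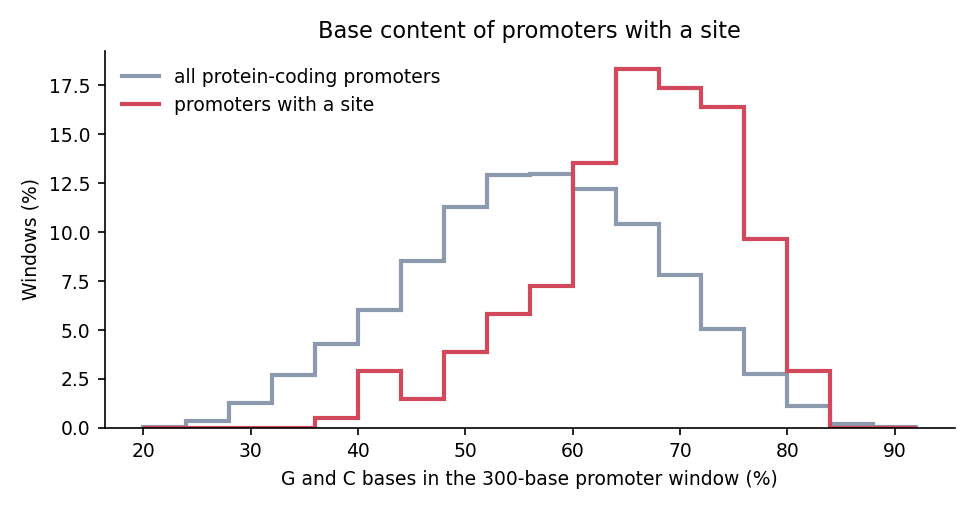
Share of promoter windows (vertical axis, percent) by GC content of the 300-base window (horizontal axis, percent), for the 207 windows that hold a site and all 21036 protein-coding windows. The windows with a site lie to the right, with a median of 67.0% against 56.7%.

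Some short promoter motifs differed in frequency between windows with a site and all windows. Each was searched as exact letters on both strands. The GC box GGGCGG, the letters bound by Sp and Klf factors, was in 73.9% of windows with a site and 46.7% of all, and the TATA box TATAAA was in 6.76% and 12.7%. Among CpG-rich windows alone, 181 with a site and 10119 in all, the GC box was at 78.5% and 74.2% and the TATA box at 5.52% and 5.57%. For these 2 motifs the shares in CpG-rich windows lay closer together than in all windows. The E-box CACGTG, recognised by Myc and the Mitf/Tfe factors, was in 15.9% (11.2 to 21.7) against 7.92%, and within CpG-rich windows in 16.6% (11.5 to 22.8) against 11.4%. The longer forms that overlap it were in 6.76% against 2.86% (CACGTGAC) and 4.35% against 1.25% (TCACGTGA), and in CpG-rich windows in 7.18% against 4.71% and 4.42% against 2.09%. ETS letters CCGGAAGT were in 12.1% (7.97 to 17.3) against 5.20%, and in 12.7% (8.23 to 18.5) against 9.06% in CpG-rich windows. The macrophage PU.1 letters GAGGAAGT were in 1.45% against 3.15%, the AP-1 letters TGAGTCA in 2.90% against 4.69% and the CRE letters TGACGTCA in 1.45% against 2.26%. In CpG-rich windows PU.1 letters were in 1.10% (0.134 to 3.93) against 2.34%, AP-1 letters in 1.66% (0.343 to 4.77) against 2.47% and CRE letters in 1.10% (0.134 to 3.93) against 3.73%. The observed shares of E-box forms and ETS letters were thus higher, and those of CRE, PU.1 and AP-1 letters lower, with a site in both comparisons. Most of these differences rest on few windows. For CRE, PU.1 and AP-1 letters the interval with a site held the share of all windows in both comparisons. In CpG-rich windows it did so for ETS letters and the longer E-box forms as well, and only that of CACGTG lay just above, from 11.5 against 11.4%. No difference was tested. A start of another gene on the opposite strand lay within 1 kb of 18 of the 207 windows (8.70%) and of 9.39% of all windows, so divergent starts were about as frequent with a site as without regard to one. A motif match describes the letters only.

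Most genes were named by a single site. Of the 2191 genes, 1598 (72.9%) had 1 site, 511 had 2 to 4, 67 had 5 to 9 and 15 had 10 or more. The mean was 1.58 sites, the median 1 and the highest 25. Among 21883 protein-coding genes of the reference, 2138 (9.77%) were named by at least 1 of these sites, 1095 (5.0%) by at least 1 promoter site and 80 (0.366%) by at least 5 sites. A site was at the promoter of 1114 of the 2191 genes (50.8%), and 845 (38.6%) had promoter sites and no other. The 82 genes with 5 or more sites held 18% of all sites. The number of sites went with gene length: the median length was 29.8 kb for genes with 1 site (n = 1554), 55.0 kb with 2 to 4 (n = 504), 157 kb with 5 to 9 (n = 65) and 175 kb with 10 or more (n = 15), against 17.2 kb over all protein-coding genes. Genes with promoter sites alone had a median of 25.2 kb (n = 830). The part of length in the counts was not tested.

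Some genes of the lysosome and of lysosome-related organelles stood among those with the most sites, a grouping made after their counts were seen. Dtnbp1 and Lrmda are not among the named genes of the lysosome and phagosome list used below. Fnip2, a folliculin-interacting protein of the nutrient-sensing machinery at the lysosome, had 25, the highest count. Atp6v0d2, the d2 subunit of the proton pump that acidifies lysosomes and a gene typical of osteoclasts and macrophages, had 24. Dtnbp1, which encodes dysbindin of the BLOC-1 complex that builds lysosome-related organelles, had 15. Gpnmb, a transmembrane glycoprotein of melanosomes and of macrophage lysosomes, had 14. Lrmda, named for melanocyte differentiation, had 19.

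The 25 sites that name Fnip2 (chromosome 3, 79455971 to 79568151, minus strand, 112 kb) reached from 79448491 to 79562284 with a median gap of 2478 bp. Only 19 of them were in the gene or up to 5 kb before it. Beyond its 3′ end, 6 lay in introns of Gm17359, and these formed with 3 sites in the 3′ UTR class a run of 9 sites over 11 kb in which no gap exceeded 5 kb. The other 16 were spread through the gene, with the 3 promoter-class sites at 79465290, 79499870 and 79501258. All 3 lay inside the gene, since the distances were taken to the nearest of several annotated transcript starts, and the site closest to the 5′ end of the gene, at 79562284, was in intron 1. The promoter class of a gene with many transcripts is therefore not always its 5′ end.

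Atp6v0d2 (chromosome 4, 19876838 to 19922566, minus strand, 45.7 kb) showed a different layout. Its 24 sites covered 68.1 kb, and 15 were in the gene or up to 5 kb before it, 12 in introns. A run of 7 sites from 19903433 to 19912532 was in introns 1 and 2. A second run of 7 sites, from 19870001 to 19880830, reached across the 3′ end of the gene, and 4 of its sites were distal intergenic. At the 5′ end 1 site was at 228 bp from the start and 1 at 1729 bp, and 3 more lay upstream at -8815, -11638 and -15468 bp. Counting only sites in or near the gene lowered its number from 24 to 15.

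Gpnmb (chromosome 6, 49036518 to 49058182, plus strand, 21.7 kb) held 12 of its 14 sites within itself or 5 kb upstream. The closest site to a start was at -332 bp. Runs of 7 sites over 6.74 kb at its 5′ end and of 6 over 9.85 kb at its 3′ end left a stretch without a site between 49042949 and 49048456. Dtnbp1 (chromosome 13, 44922079 to 45002096, minus strand) held 9 of its 15 sites in the gene or up to 5 kb before it, and 5 were in Jarid2, the neighbouring gene for a Polycomb cofactor, which itself was named by 5 other sites. Lrmda (chromosome 14) spans 1037 kb, and 16 of its 19 sites were in its introns. With rows that name other genes or none, 47 rows of the table lay in it or 5 kb upstream.

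**Figure D3:**
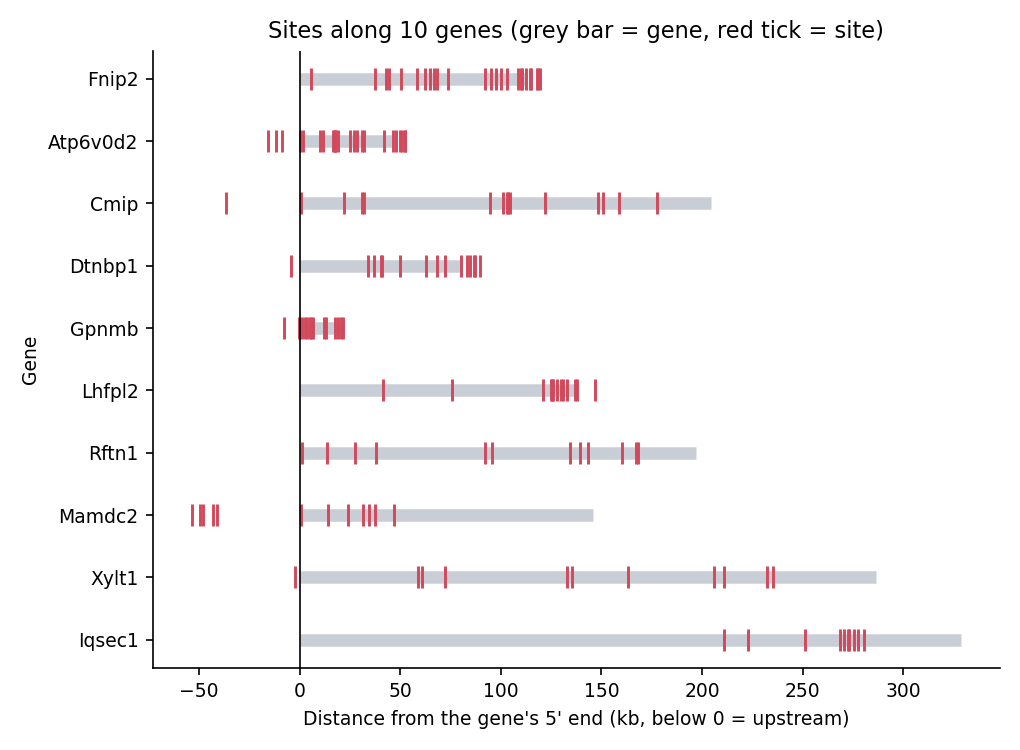
Positions of sites (ticks) by distance from the gene's start in the direction of transcription (horizontal axis, kb) for the 10 genes with the most sites among those of at most 330 kb. Grey bars are RefSeq gene spans. Fnip2, Atp6v0d2 and Dtnbp1 each have 6 sites past the 3′ end of the gene, Gpnmb and Lhfpl2 1 each, and those of Mamdc2 begin before its start.

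Several other genes among the 25 with the most sites encode signalling, membrane or actin proteins, a grouping made after their counts were seen. Cmip, the c-Maf-inducing protein, had 15 sites, 12 of them in introns. Rftn1, which encodes the lipid raft protein raftlin, had 12, all in the gene or 5 kb upstream. Iqsec1, an exchange factor for Arf6, had 10, with a run of 7 over 11.6 kb. Sirpa, the inhibitory receptor for CD47 on macrophages, had 9, of which 7 were intronic and 0 at a promoter, and its run of 7 sites spanned 11.8 kb. Elmo1, which joins Dock proteins to activate Rac during engulfment, had 8, all intronic. Vav3, a guanine nucleotide exchange factor, had 8, with 7 in introns. Capzb, the beta subunit of the actin capping protein, had 7, of which 2 were at a promoter. Introns held most sites in each of these genes except Iqsec1, where they held 5 of 10.

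Lgals3 encodes galectin-3, the lectin also known as the macrophage marker Mac-2. It had 10 sites, 9 of them in the gene or up to 5 kb before it (chromosome 14, 47373860 to 47386167, plus strand), in only 12.3 kb. The median gap was 922 bp, and merging sites within 1 kb left 5. The 9 sites ran from 47375934 to 47383974, none within 1 kb of the start. Sites that name the neighbour Dlgap5 also lay within the span of Lgals3. Together they made the run with the most sites of the set, 12 over 10.2 kb with no gap above 5 kb, all inside Lgals3.

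The remaining genes with the most sites had varied functions. Lhfpl2, a tetraspan membrane protein, had 13 sites, of which 10 made a run over 16.6 kb at its 3′ end. Mamdc2, a MAM-domain protein, had 12, but 5 were distal intergenic sites upstream and 7 were in the gene or 5 kb before it. Foxp1, a forkhead transcription factor of monocyte differentiation, had 11, with 1 at -39 bp. Xylt1, the enzyme that starts glycosaminoglycan chains, had 11. Tmcc1, a protein of the endoplasmic reticulum, had 10, of which 4 were promoter sites. Plcl2, a phospholipase C-like protein, had 10, of which 6 were distal and 4 in the gene or 5 kb before it. Zfand3 had 9, and Cdkl4, Dhrs3, Fam196b and Sgms1 had 8 each. For Fam196b 3 sites lay in Dock2, and for Cdkl4 2 lay in Map4k3. Ext1, which extends heparan sulfate, had 7. Counting only sites in the gene or 5 kb before it left 5 for Fam196b and 5 for Sgms1.

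**Figure D4:**
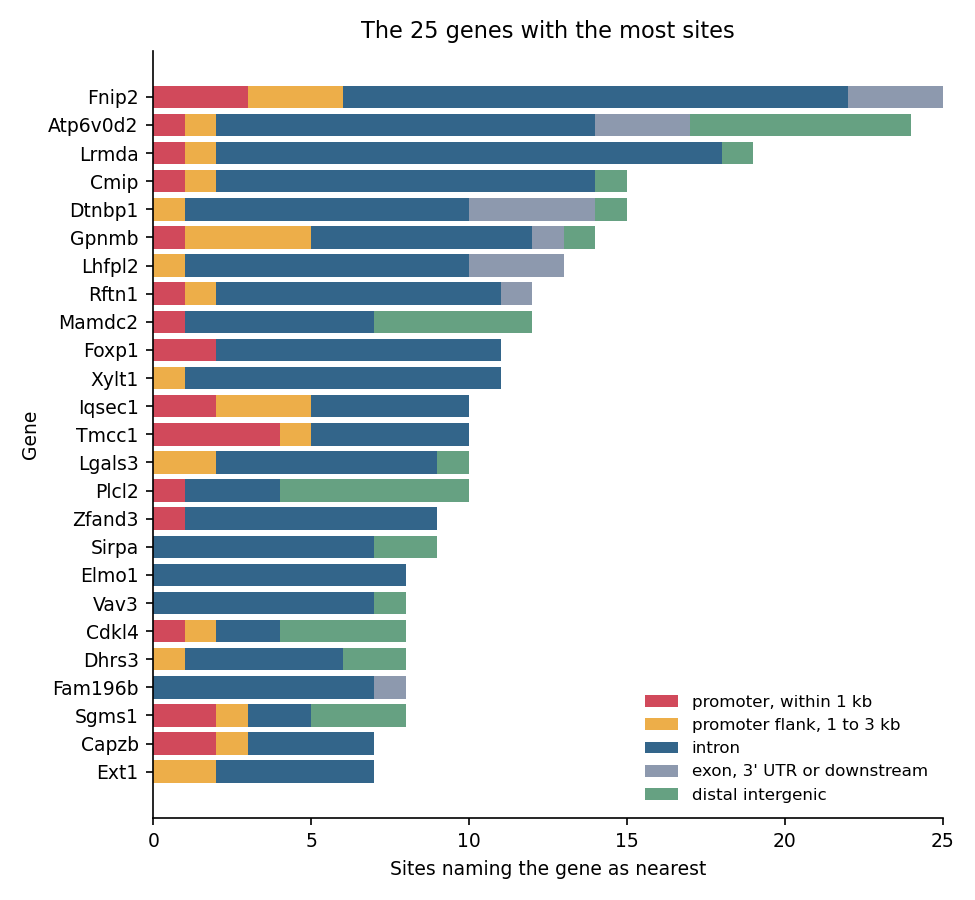
Number of sites (horizontal axis) that name each of the 25 genes with the most sites, split by annotation class. Introns make up most of the bar in most genes, and distal sites are the larger part for Plcl2 with 6 of 10.

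Most sites stood alone, and a minority lay in local runs. Joining sites with gaps of at most 5 kb gave 2959 runs, of which 2628 (88.8%) were single sites. The 78 runs of 3 or more held 321 sites (9.29%), and 21 runs had 5 or more. With gaps of at most 1 kb there were 3294 runs, 12 of them with 3 or more sites and 7 in the longest. The run with the second most sites at 5 kb was 11 sites over 11.7 kb on chromosome 7 (142373120 to 142384774). It was shared by Gm49369 and Ifitm10, a member of the interferon-induced transmembrane family. In windows of 1 Mb, chosen after the values were seen, the median was 2 sites over 1080 windows with a site, and 47 windows had 10 or more. The fullest was chromosome 3 from 79000001 to 80000000 with 35 sites, 25 for Fnip2 and 7 for its neighbour Rapgef2. Others were chromosome 4 from 19000001 with 26, of which Atp6v0d2 had 24, and chromosome 17 from 50000001 with 22, shared by Rftn1 with 12 and Plcl2 with 10.

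Gene lists were read against the share of all protein-coding genes named by these sites, 9.77%. The lists, and the families below, were written with earlier results of these data known, so their shares are descriptions and not independent support. A list gene without a row cannot be placed above or below gene number 27620, so each list also had members that could not have been named here. In the lysosome and phagosome list 12 of 46 genes (26.1%) were named, by 76 sites, and 14 others were named at lower numbers. The list holds Fnip2, Atp6v0d2 and Gpnmb, with 25, 24 and 14 of those sites. Without Fnip2 it had 51 sites. Outside the 3 genes described above the counts were small: Atp6v1a, a catalytic subunit of the proton pump, had 4 and Grn, the lysosomal progranulin gene, had 2. Promoter sites were at 10 of the 12, among them Lamtor1, the membrane anchor of the Ragulator complex, at 105 bp, Clcn7, the lysosomal chloride exchanger, at 146 bp, Asah1, acid ceramidase, at 148 bp and Ctss, the protease cathepsin S, at 326 bp.

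Of the macrophage identity list 9 of 42 genes (21.4%) were named, by 25 sites, of which Sirpa had 9. Mitf, a transcription factor of lysosomal and osteoclast genes, had 7, the closest at 75 bp from a start. Csf2rb, the shared receptor chain for GM-CSF, had 2 and Lyz2, the lysozyme gene of macrophages, had 2, of which 1 was in the gene or 5 kb before it. The regulators Cebpa, Irf8, Tfec and Cebpb had 1 each, at -603, 1853, 1161 and -8674 bp, and Tyrobp, the DAP12 adaptor, had 1 at -10762 bp. Promoter sites were at 2 of the 9, Mitf and Cebpa. A further 11 genes of the list were named at lower numbers. The label of a macrophage line could not be checked, as there are no expression data and sites do not measure it. Of T and B cell genes 2 of 25 (8.0%) were named, Cd79b at -10349 bp and Trac at 7706 bp, and 4 others at lower numbers. Of hepatocyte genes 2 of 21 (9.52%) were named, Apoa1 at 1564 bp and Cyp7a1 at -19866 bp, so both lists were near the 9.77% of all genes. Neuronal genes were named in 0 of 26, with 1 at lower numbers. These 3 lists had 0 promoter sites. The median gene length was 24.2 kb in the macrophage list and 70.9 kb in the neuronal one.

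Within this range of gene numbers, early LPS-induced and interferon genes were named about as often as all genes, and genes that carry the LPS signal more often. This does not hold for the whole unstimulated table by itself. Each of these lists had more members named at lower numbers than here, although fewer genes in all were named there (1322 against 2191). Of 47 early LPS-induced genes 5 (10.6%, against 9.77% of all genes) were named, by 8 sites, and 12 others were named at lower numbers. Nfkb1, the p105 precursor of the NF-kB p50 subunit, had 3, the closest at 749 bp. Socs3, a feedback inhibitor of cytokine signalling, had 2, 1 of them in the gene or 5 kb before it. Nfkbiz, the nuclear cofactor IkB-zeta, had 1 at 5 bp, Icam1, an adhesion receptor, had 1 at -829 bp and Birc3, a ubiquitin ligase of the TNF receptor complex, had 1 at 4367 bp. In the interferon list 3 of 37 (8.11%) were named and 5 others at lower numbers. The 3 had 1 site each: Usp18, which removes ISG15, at -48 bp, Ifit2, an RNA-binding antiviral effector, at -2701 bp and Gbp5, a guanylate-binding protein, at -39396 bp. Of the TLR4, NF-kB and MAPK signalling list 8 of 41 (19.5%) were named, by 9 sites, and 11 others at lower numbers. The kinase Map2k4 had 1 of them at 371 bp. The adaptor Ticam1 (TRIF) and the kinase Ikbke had 1 each, at 7285 and -2739 bp. The LPS receptor Tlr4 was named by 1, classed as intron 2, at 39458 bp. Of the 9 sites 8 were in the named gene or 5 kb before it, and that of Tlr4 was not. The early LPS list had a median gene length of 6.60 kb and the signalling list one of 39.7 kb.

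The protein's own class, hnRNPs and splicing factors, had 15 of 65 genes named (23.1%) by 30 sites. Promoter sites were at 10 of the 15 genes and made up 15 of the 30 sites. Hnrnpf had 6 sites, 4 at a promoter. Mbnl1 had 6 as well, 4 of them in introns. Hnrnpa3 had 4, the closest at 3936 bp, and only 2 were in the gene or 5 kb before it. Hnrnpr and Pcbp2 had 2 each, all at promoters, with the closest at 50 and -60 bp. Hnrnpul2, a paralogue of the precipitated protein, had 1 at 732 bp. Of 40 DNA damage response genes 4 (10.0%) were named, by 6 sites, among them these: Rad51b, a gene of homologous recombination, had 3 in intron 7, the kinase Atr had 1 at -12 bp and the stress gene Gadd45a had 1 at 13 bp.

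Chromatin and transcription coregulators had the highest share of the 12 lists, 20 of 60 (33.3%), by 37 sites, and also long genes, with a median of 85.0 kb. Rere, a corepressor, had 7 sites and Jmjd1c, a demethylase-family protein, had 5, with 0 promoter sites in either. Tet3, a methylcytosine dioxygenase, had 4, of which 2 were promoter sites, and Kdm2a, a demethylase that binds CpG islands, had 3, of which 2 were. Promoter sites were at 9 of the 20 genes, including the acetyltransferase Ep300 at 576 bp, the methyltransferase Ezh2 at 148 bp and the remodeller Chd8 at 51 bp. Ribosomal protein genes, which are short (median 3.27 kb), were named in 10 of 65 (15.4%) by 11 sites, and 8 of the 10 had a promoter site. Their points lay at -10 bp in Rpl30, 30 bp in Rpl3, 77 bp in Rpl22 and 90 bp in Rpsa, while the 2 of Rps23 were outside its promoter.

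Larger families were taken by gene name. Regulators of small GTPases were named often: Ras and Rap regulators in 13 of 46 (28.3%, 38 sites) and Rab GTPases and their regulators in 28 of 124 (22.6%, 48 sites). Among them Rapgef2 and Rapgef6, both exchange factors for Rap, had 7 sites each, although only 3 of those of Rapgef6 were in the gene or 5 kb before it. Rab7, the GTPase of late endosomes and lysosomes, had 5, the closest at -6666 bp from the nearest annotated transcript start. All 5 were nevertheless in the gene or 5 kb before it. Dennd1a, a Rab35 exchange factor, had 5, the closest at 15 bp. Median gene lengths were 74.5 kb for the Ras and Rap and 34.8 kb for the Rab family. The MAP kinase cascade with dual specificity phosphatases had 15 of 78 (19.2%, 24 sites), led by Map2k5, the kinase of ERK5, with 3.

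Ubiquitin ligases, conjugating enzymes and peptidases had 52 of 352 named (14.8%, 74 sites), among them Rnf144b with 4, Fbxw7 with 4, of which 1 was in the gene or 5 kb before it, and Ube2d3 with 3, the closest at -10 bp. Zinc finger proteins with a Zfp symbol had 50 of 397 (12.6%, 64 sites), and 29 of the 50 had a promoter site. Solute carriers, at 38 of 389 (9.77%, 59 sites), matched the share of all genes, and Slc6a6, the taurine transporter, led them with 6. Cytokines, chemokines and receptors were at 21 of 214 (9.81%, 27 sites), led by Tgfbr2 with 3, but only 17 sites were in the genes or 5 kb before them. Proteasome subunits (3 of 40, 7.5%), the mitochondrial ribosome (6 of 78, 7.69%) and mitochondrial respiration (9 of 100, 9.0%) were near the share of all genes. At lower numbers 5, 3 and 11 others of these families were named, in that order. Olfactory and vomeronasal receptors, a family expressed mainly in sensory neurons, were named in 9 of 1465 (0.614%). Their genes are short, with a median of 0.951 kb.

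**Figure D5:**
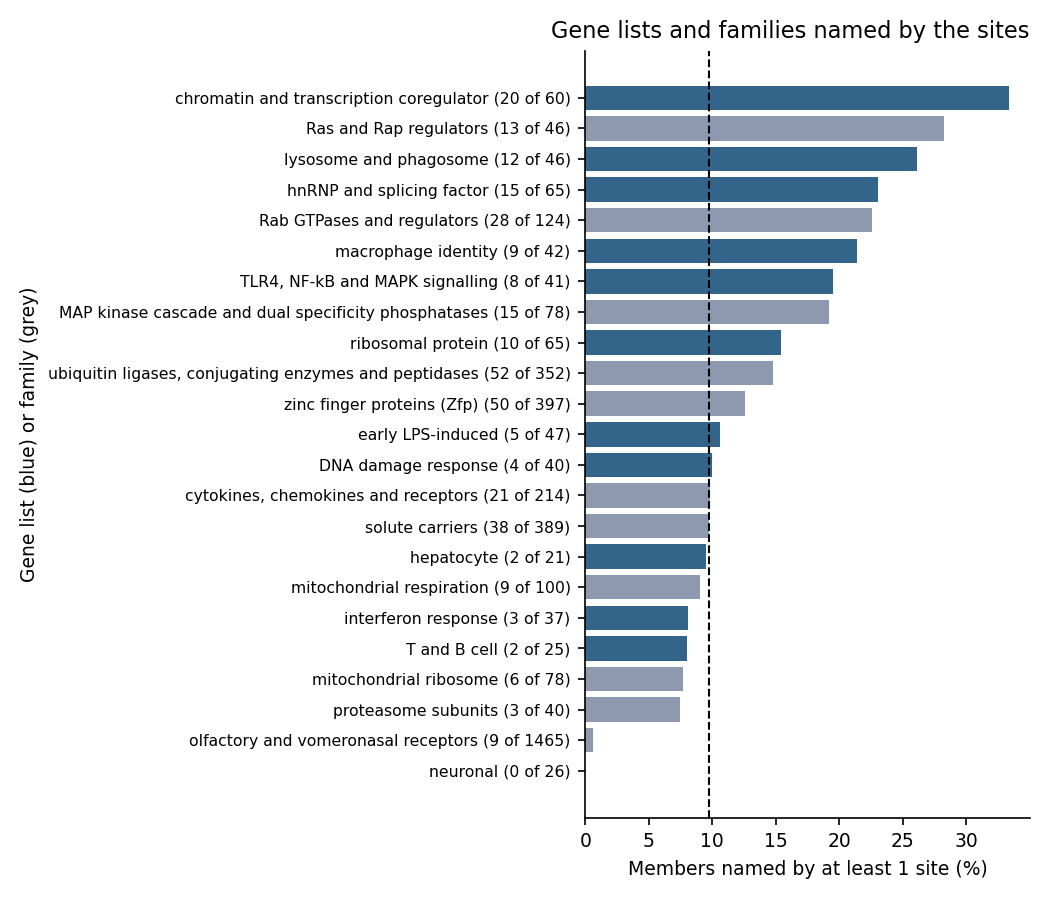
Percent of the members of the gene lists and families described here that were named by at least 1 site (horizontal axis), 1 library. The dashed line marks 9.77%, the share of all protein-coding genes, and chromatin coregulators at 33.3% lie farthest above it and neuronal genes at 0 farthest below.

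Chromosomes differed in the number of sites per length, measured to the last annotated gene. Autosomes together had 1.39 sites per Mb and 16.6 per 100 protein-coding genes. Chromosome 6 was highest with 363 sites, 2.43 per Mb and 32.2 per 100 genes, followed by chromosome 5 with 1.91 per Mb and chromosome 11 with 1.89. Chromosome 12 was the lowest autosome with 0.733 per Mb. Gene numbers are not spread evenly over chromosomes, and the counts at lower numbers were in another order: chromosome 3 had 264 sites here and 32 at lower numbers, and chromosome 10 had 113 and 161. Chromosome 6 was below the autosomes at lower numbers, with 0.408 against 0.896 per Mb. Over all 8425 rows it had 4.16 sites per Mb and the autosomes 3.4, and chromosomes 11, 2, 15, 17 and 19 were higher, chromosome 11 the highest with 5.45. Chromosome X had 35 sites, 0.205 per Mb and 3.62 per 100 genes, and it was also low at lower numbers (0.0703 per Mb against 0.896 on autosomes) and over all rows (0.393 against 3.4). X-linked genes were thus seldom named in either range of gene numbers.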

How the data were processed

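The authors deposited 1 table of peaks for each of the 3 ChIP samples, and only the unstimulated one was used for values. The tools listed in the submitters' processing notes are MACS2 2.1.0, BWA 0.7.12 and CASAVA 1.8, with no role given, and the build listed is mm10 (GRCm38). The peak calling settings, the use of the input libraries and the annotation tool are not given in the sources used here. The annotation class, nearest gene and distance are the authors' own, and the tables deposited hold no counts, signal or score, so the depth is unknown. Rows with a gene name at or above the last gene number of the 4 h table were kept. Class shares, sites per gene, distances, runs, sites per Mb and list counts were computed with Python 3.11.15, pandas 2.3.3, numpy 2.4.6 and SciPy 1.17.1, and the counting was checked on simulated data. The promoter class means within 1 kb of a start. Of 2191 gene names, 2139 matched RefSeq by symbol, 22 by an older symbol and 30 not at all. 2 names appear in a date form, as spreadsheets write some symbols, and stay unmatched. Of the planned motifs, 9 were searched and 2 of 10 letters were not.

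With 1 library there was no test and no p-value. The members, the 12 lists and the 12 families were chosen with earlier results of these data known. Named were the 25 genes with the most sites (the last places were a tie at 7 sites, broken by sites in the gene or 5 kb upstream and then by symbol) and up to 4 members of each list or family with the most sites. Some further list members were named after their values were seen, to show their promoter distances. 1 family and some list members are not reported here.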

Additional observations from a re-analysis of the deposited data

How the results depend on the processing

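The alternatives were merging sites within 1 kb or 5 kb, counting only sites in the gene or 5 kb upstream, taking promoters by distance up to 3 kb, taking protein-coding genes only, leaving out the 10 genes with the most sites or the list member with the most sites, scaling chromosomes by genes, and moving the 1 Mb windows by 0.5 Mb. The last was chosen after seeing the data. With protein-coding genes only, without those 10 genes or with sites within 1 kb merged, promoters held 35.2% to 37.3% of sites, introns 33.1% to 34.9% and distal sequence 14.1% to 15.0%, while promoters up to 3 kb held 46.4%. The 15 genes with 10 or more sites became 12 at 1 kb, 11 in or near the gene and 3 at 5 kb. The mean of 1.58 sites per gene became 1.36 to 1.52. Chromosome X over autosomes was 0.148 per Mb and 0.219 per 100 genes, chromosome 6 over autosomes 1.75 and 1.95, and windows with 10 or more sites numbered 47 and 48. Without the member with the most sites, macrophage identity kept 16 sites, early LPS-induced genes 5, DNA damage response genes 3, proteasome subunits 2, and T and B cell and hepatocyte genes 1 each. Counted in the gene or 5 kb upstream, T and B cell genes had 0 sites, hepatocyte genes 1, cytokines with receptors 17 and olfactory with vomeronasal receptors 4. Of 104 named genes, 22 changed their count by more than 1.5 times when only sites in or near the gene were taken, and 2 did when sites within 1 kb were merged. The motif search in sequence around each site was not run, as it needs a genome. Unknown depth limits every absence. No paired analysis was possible because each group has 1 library.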

Other observations

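InterPro protein domain terms deposited with the sites gave another view of the 2191 genes. The P-loop nucleoside triphosphate hydrolase fold, that of GTPases, kinases of nucleotides and many ATPases, was the most frequent with 98 genes (4.47%, 3.65 to 5.42), and it was at 6.73% (5.44 to 8.22) among the 1322 genes of lower number. The PH-like fold, which binds membrane lipids and phosphotyrosines, was in 89 genes (4.06%, 3.27 to 4.98) with a mean of 2.20 sites, the most sites being those of Iqsec1 with 10. The C2H2 zinc finger, the commonest DNA-binding domain of transcription factors, was in 80 genes (3.65%, 2.91 to 4.52) and in 1.66% (1.05 to 2.51) at lower numbers. The protein kinase domain went the other way, in 59 genes (2.69%, 2.06 to 3.46) and 4.77% (3.68 to 6.06) at lower numbers. Whether all genes of the 2 number ranges differ in the same way was not tested.

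The share of genes with a promoter site varied between the groups of domains, and no intervals were computed for it. A promoter site was present in 61.4% of the 44 genes with an RNA-binding domain, against 50.8% of all 2191 genes. The share was similar for C2H2 zinc fingers (60%) and the serine/threonine kinase active site (59.5%). It was 57.1% for the P-loop fold and 49.4% for the PH-like fold. A promoter site was present in 26.7% of the 75 genes with the immunoglobulin-like fold, typical of cell surface receptors. It was present in 19.0% of the 42 genes under the related term for the immunoglobulin-like domain superfamily.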
